A study of Ovis aries with 2 samples.

Results

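The miR-30 family was described in extracellular vesicles, the membrane-bound particles released by cells, isolated from uterine luminal fluid (ULF) of Rambouillet ewes (Ovis aries). Members were the mature miRNAs whose precursor is named mir-30 followed by 1 letter from a to f, and 5 of the 81 mature miRNAs listed for the vesicles met this rule, namely miR-30a, miR-30b, miR-30c, miR-30d and miR-30e. No miR-30f was among the listed miRNAs. All 5 members were listed in both libraries, as were 53 of the 81 miRNAs. One library came from pregnant ewes on day 14 after mating and 1 from cyclic ewes on day 14 after estrus, and each was made from RNA pooled from 4 ewes. Pregnant ewes had been mated with an intact ram, no other treatment is named for either group, and the vesicles were precipitated from the flushed fluid with ExoQuick-TC. The question was which miRNAs are carried by vesicles in the uterine lumen when a conceptus is present and when it is not. With 1 pooled library per condition there was no replicate, the spread between ewes could not be measured, and each comparison below is between 2 libraries and not between the conditions.

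A miRNA is a short RNA that guides the silencing complex to mRNAs, mainly by pairing of its seed, bases 2 to 8 from the 5′ end. The members of the miR-30 family share 1 seed and so can pair with overlapping sets of mRNAs. The family is known for its high level in epithelia such as the kidney tubule, for repression of SNAI1, a transcription factor of epithelial-mesenchymal transition, and, in the case of miR-30a, for repression of BECN1, a protein of autophagy. In the human uterus, miR-30b and miR-30d are known as miRNAs that rise in the receptive endometrium, and miR-30d is known to be released into endometrial fluid in exosomes that embryos can take up.

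The mature sequences to which the reads were assigned are shown because they hold what the members share and where they part. They are the cattle reference sequences of the deposited table, 5′ to 3′, with T for U and the seed in capitals.
miR-30a: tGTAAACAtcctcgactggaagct
miR-30d: tGTAAACAtccccgactggaagct
miR-30e: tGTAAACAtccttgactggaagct
miR-30b: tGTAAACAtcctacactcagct
miR-30c: tGTAAACAtcctacactctcagc
The first 11 bases were the same in all 5 members. All 5 carried the seed GTAAACA, and no other miRNA of the 81 did. No miRNA outside the family shared more than the first 3 bases with a member. Counted from 1 at the 5′ end, miR-30a differed from miR-30d by the single substitution T12C and from miR-30e by the single substitution C13T. miR-30d and miR-30e differed by C12T and C13T. miR-30b and miR-30c had their first 18 bases in common and then parted. Over the 22 bases compared, miR-30a and miR-30b differed at 7 positions, all of them behind base 12. The sequences therefore formed a group of miR-30a, miR-30d and miR-30e, each of 24 bases, and a pair of miR-30b with 22 and miR-30c with 23 bases. Their GC content was 40.9 to 45.8% in 4 members and higher in miR-30d, beside a median of 45.5% over the 81 sequences. The motifs GGAG and CCCT (CCCU in RNA), which have been linked to the loading of miRNAs into exosomes of human T cells, were searched on the mature strand only, as the opposite strand is not part of a mature miRNA. None of the 5 members held GGAG or CCCT, while 11.1% of the 81 sequences held GGAG and 11.1% held CCCT. This says only that these letters are not in these sequences.

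RefSeq annotates a sheep gene of the same name for 4 of the 5 members (assembly ARS-UI_Ramb_v3.0). MIR30D and MIR30B are consecutive genes there, so that a member of each sequence group comes from the same cluster. MIR30C lies within NFYC, the gene of a subunit of the transcription factor NF-Y, and MIR30A lies within an annotated long noncoding RNA. miR-30e had no entry of its name. The annotation was used for names and neighbours only.

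The pregnant library held 119605 reads, of which 2809 were counted for mature miRNAs, and the cyclic library held 94735 reads with 7921 such counts. The authors kept sequences with 10 or more copies and grouped them by mature miRNA, and the smallest listed count was 10 in each library. Rarer sequences are missing from the counts, so a miRNA listed at 0 can have had more than 9 reads. Shares are given with an exact Clopper-Pearson 95% interval and ratios of shares, pregnant over cyclic, with an exact conditional binomial 95% interval. No molecular identifiers were used, a molecule can have been read more than once, and these intervals cover counting error only. Of 8 epithelial marker miRNAs, 5 were listed in the pregnant library, at 14.5% of its counts, and 8 were listed in the cyclic one, at 16.2%, with miR-141, miR-429 and miR-34c at 0 in the pregnant library. Of 5 blood cell markers, 1 was listed in the pregnant library, at 0.427% of its counts, and 2 were listed in the cyclic one, at 1.60%, and miR-486, miR-144 and miR-142 were listed in neither. Of 5 markers of stroma, smooth muscle and vessels, 1 and 4 were listed, at 1.85% and 1.89%, and miR-126 was listed in neither.

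Together the 5 members had 220 counts in vesicles from pregnant ewes, 7.83% of the mature miRNA counts (6.86 to 8.89%). In vesicles from cyclic ewes they had 580 counts, 7.32% (6.76 to 7.92%). The intervals overlapped, and the ratio of the summed family was 1.07 (0.912 to 1.25). A change of 2-fold in either direction therefore lay outside the counting error of the sum, whereas a ratio of 1 lay inside it. These statements hold relative to total mature miRNA counts. The direction depended on the scaling, since the ratio of the sum was 0.960 (0.818 to 1.12) with edgeR's TMM, and under the size factors of DESeq2 it was 0.915 (0.780 to 1.07). The size factors of DESeq2 rest only on miRNAs listed in both libraries, a limit taken up below. Relative to all reads of the library the ratio of the sum was 0.300 (0.256 to 0.351), on a scale that lowered most listed miRNAs.

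miR-30d, the member known from human endometrial fluid, was the most abundant of the family in both libraries. It had 73 counts in the pregnant library, 2.60% of the mature miRNA counts (2.04 to 3.26%), and 197 in the cyclic library, 2.49% (2.16 to 2.85%). Its rank among all listed miRNAs was 12 in the pregnant library, level with miR-200a, and 10 in the cyclic library. The ratio was 1.04 (0.788 to 1.37), so that no difference in miR-30d relative to total mature miRNA counts was detectable at this depth. The value fell on the other side of 1 with edgeR's TMM (0.938) and with DESeq2's size factors (0.894). Relative to all reads of the library it was 0.294 (0.221 to 0.386).

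miR-30b, the cluster partner of miR-30d, had 62 counts in the pregnant library, 2.21% of the mature miRNA counts (1.70 to 2.82%), and 189 in the cyclic library, 2.39% (2.06 to 2.75%). The shares overlapped within counting error, with a ratio of 0.925 (0.683 to 1.24). Its rank was 17 among the pregnant and 11 among the cyclic counts. The pair of miR-30b and miR-30d kept close to each other in both libraries. miR-30d had 1.18 times the counts of miR-30b in the pregnant library (0.828 to 1.68) and 1.04 times in the cyclic library (0.849 to 1.28), and neither value could be told from 1. This pair made up 61.4% of the family counts in the pregnant library (54.6 to 67.8%) and 66.6% in the cyclic library (62.5 to 70.4%).

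miR-30a, the member known as a repressor of BECN1, followed miR-30d and miR-30b in both libraries. It had 38 counts in the pregnant library, 1.35% (0.959 to 1.85%), and 120 in the cyclic library, 1.51% (1.26 to 1.81%). The ratio was 0.893 (0.603 to 1.30), again with no difference detectable relative to total mature miRNA counts. The step from miR-30b to miR-30a was larger than counting error in both libraries, with 1.63 times as many counts of miR-30b in the pregnant (1.07 to 2.51) and 1.57 times in the cyclic library (1.25 to 1.997).

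**Figure D1:**
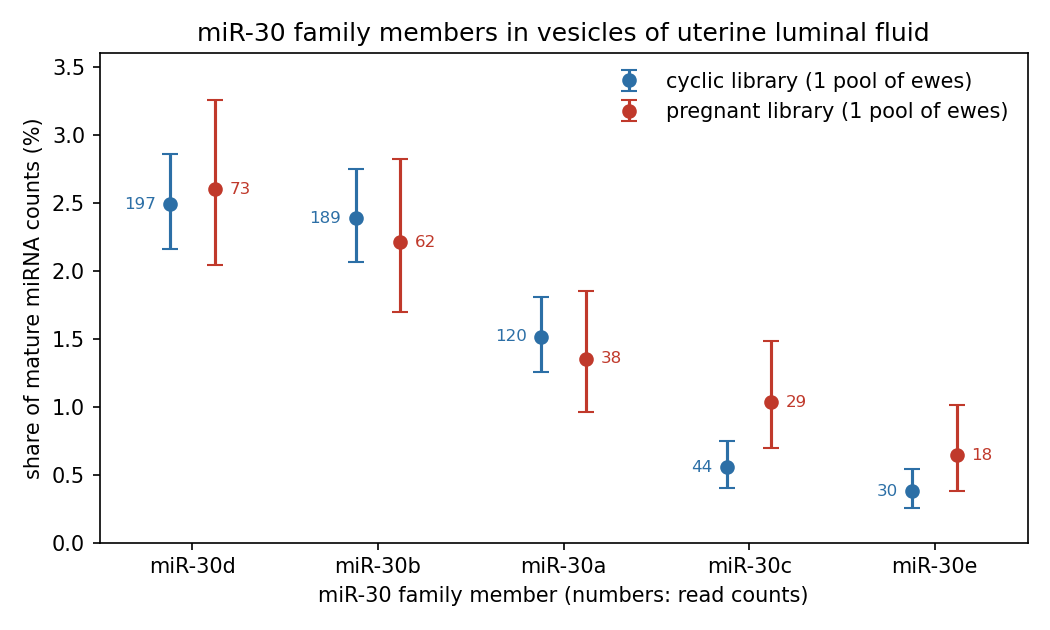
Share of the mature miRNA counts (%) of each miR-30 member in the cyclic library (blue, left) and the pregnant library (red, right), each 1 pool of 4 ewes. Points are the shares, bars the exact 95% intervals for counting error only, and printed numbers the read counts. miR-30d and miR-30b lie at 2.21 to 2.60% in both libraries, and the points of miR-30c and miR-30e are higher in the pregnant library.

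The 2 least abundant members had the largest ratios. miR-30c, whose sheep gene lies within NFYC, had 29 counts in the pregnant library, 1.03% of the mature miRNA counts (0.692 to 1.48%), and 44 in the cyclic library, 0.555% (0.404 to 0.745%). At an equal share 15.6 counts would have been found in the pregnant library. The ratio was 1.86 (1.12 to 3.04), with an interval above 1 and a value under 2-fold. miR-30e had 18 counts, 0.641% (0.380 to 1.01%), and 30 counts, 0.379% (0.256 to 0.540%), with a ratio of 1.69 (0.888 to 3.14) that could not be told from 1. Among the 53 miRNAs listed in both libraries, miR-30c stood at rank 7 and miR-30e at rank 8 in order of the ratio from the highest, while miR-30d stood at 31, miR-30b at 36 and miR-30a at 39.

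In order of counts, miR-30a and miR-30c lay apart in the cyclic library, where miR-30a had 2.73 times as many counts (1.92 to 3.95). In the pregnant library they could not be told apart, at 1.31 times (0.787 to 2.20). miR-30c and miR-30e could not be told apart in either library, at 1.61 times in the pregnant (0.865 to 3.08) and 1.47 times in the cyclic library (0.901 to 2.42). The order from miR-30d over miR-30b, miR-30a and miR-30c to miR-30e was the same in both libraries.

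A difference between the libraries was called for a miRNA if 1 lay outside its interval and the ratio was 2-fold or more in either direction. Of the 5 members, 0 were called higher and 0 lower, beside 6.17% of the 81 miRNAs called higher and 2.47% called lower. With the interval alone as the criterion, 1 of the 5 members, miR-30c, was higher and 0 were lower, beside 13.6% and 7.41% of the 81. With DESeq2's size factors the interval of miR-30c was 0.959 to 2.60, and no member was higher by that criterion. Nothing particular to the family is read from these counts, since its list holds only 5 miRNAs. The median log2 ratio of the 5 members was 0.06, beside 0.22 over the 53 miRNAs listed in both libraries. The smallest listed count of 10 is a larger share of the pregnant library. A low-level miRNA therefore enters the 53 more readily if its ratio is high, which also bears on the ranks among the 53. DESeq2's size factors rest on the same 53 miRNAs, and their log2 shift of -0.22 is the median of 0.22 with the sign turned. Values with that scaling carry the same limit. The 27 miRNAs listed in the cyclic library only and the 1 listed in the pregnant library only were set at 9 copies where unlisted. Their ratios with this setting enter the calls but not these medians, and their unlisted reads can have been more than 9.

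**Figure D2:**
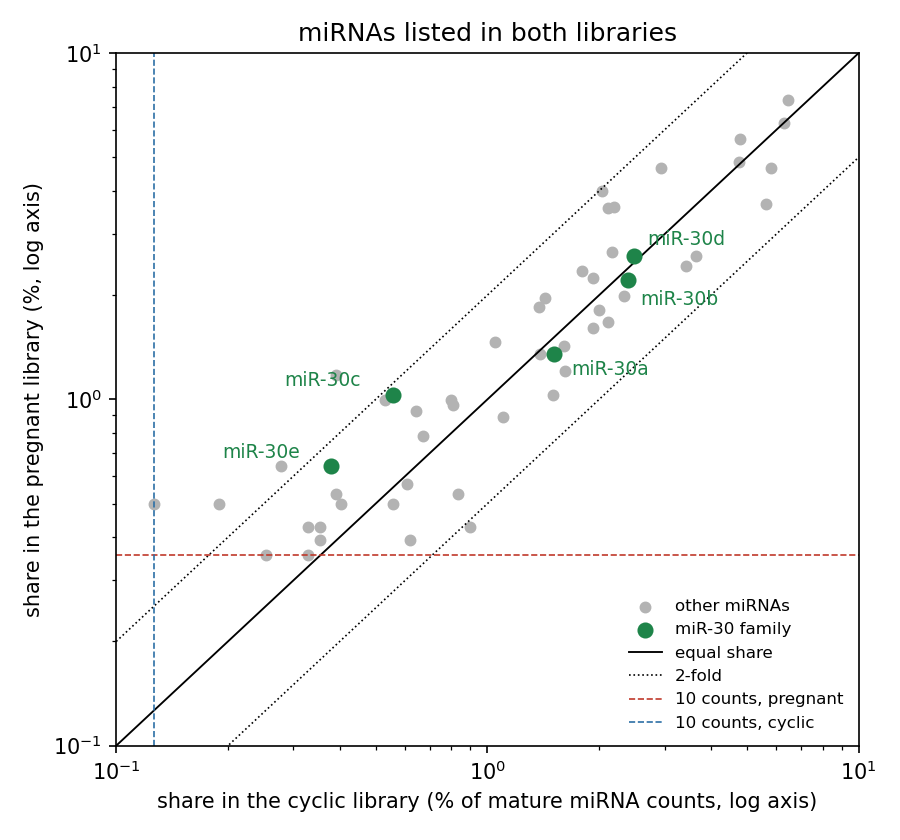
Share of mature miRNA counts in the pregnant library (y axis, %, log scale) against that in the cyclic library (x axis, %, log scale) for the 53 miRNAs listed in both, with the 5 miR-30 members in green. The solid line marks equal shares, dotted lines 2-fold differences and dashed lines the minimum of 10 counts. miR-30a, miR-30b and miR-30d lie next to the solid line, and miR-30c and miR-30e lie between it and the upper dotted line.

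The depth set what could be called for each member. At the 197 cyclic counts of miR-30d a call of higher needed at least 140 counts in the pregnant library and a call of lower at most 34. For miR-30b these limits were 135 and 33 counts, and for miR-30a 86 and 21 counts. miR-30c needed 32 counts to be called higher, and its 29 counts lay 3 below this. miR-30e needed 22 and had 18. Neither could have been called lower. That call needed at most 6 counts of miR-30c or 3 of miR-30e, whereas the smallest listed count was 10. A member at 0 would have been set at 9 copies, which gives ratios of 0.577 and 0.846 and no call. The 9 copies are a setting and not a sure upper limit, since the cut of 10 is stated for sequences. For miR-30e the minimum of 10 copies by itself gives a ratio of 0.940, so that a listed miR-30e had to lie close to 1 or above it. The values above 1 of miR-30c and miR-30e are read with this limit.

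**Figure D3:**
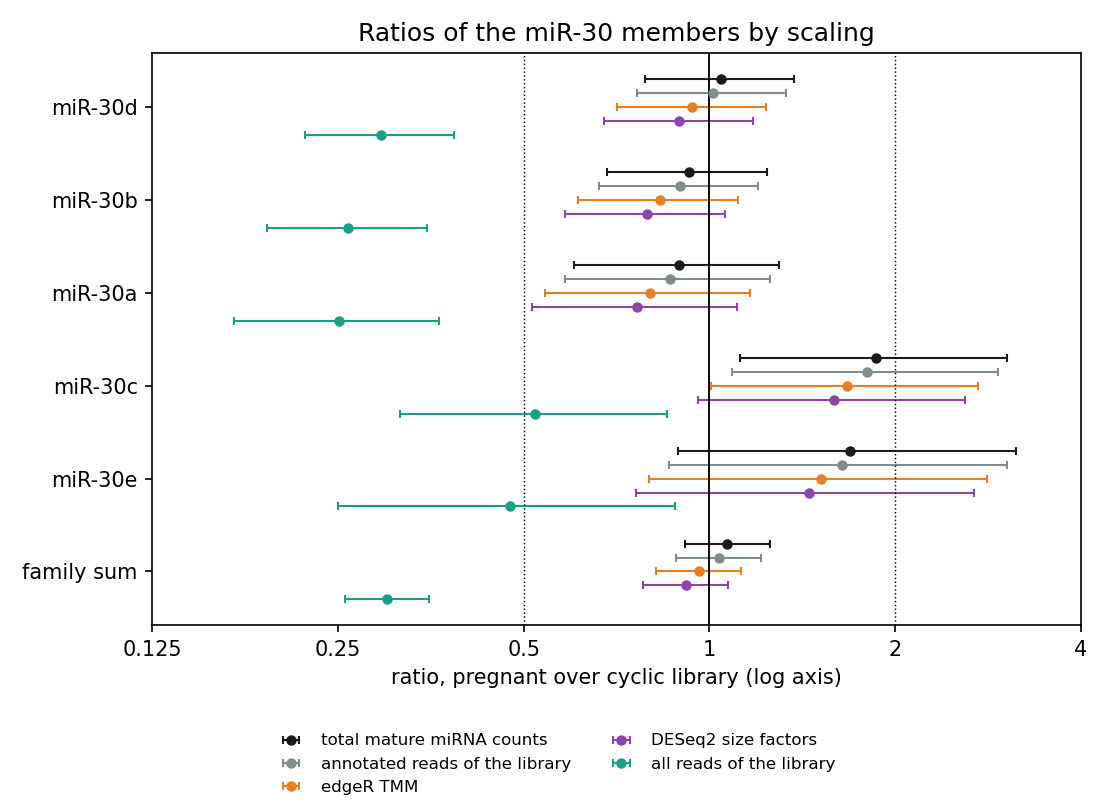
Ratio of shares, pregnant over cyclic (log axis), for each miR-30 member and for the summed family under 5 scalings, shown by colour. Points are ratios and bars exact 95% intervals for counting error, with the solid line at 1 and dotted lines at 2-fold. Relative to all reads of the library every point lies below 1, between 0.251 and 0.522, and under the other 4 scalings miR-30c and miR-30e lie above 1.

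Directions hold relative to total mature miRNA counts. Against this scaling, edgeR's TMM moved every log2 ratio by -0.16, DESeq2's size factors by -0.22 and all reads of the library by -1.83. Relative to all reads, the family made up 0.184% of the pregnant and 0.612% of the cyclic library, and the ratio of the sum was 0.300 (0.256 to 0.351). On that scale 4 of the 5 members were called lower, beside 71.6% of the 81 miRNAs, and miR-30c had a ratio of 0.522 (0.315 to 0.853). The share of reads that matched any cattle miRNA moved in the same direction, from 10.8% of the cyclic to 3.14% of the pregnant reads, and its part in the result was not tested.

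The composition of the family was compared directly, since it does not depend on the scaling of the libraries. It does depend on the cut of 10 copies per sequence, which can act unequally on the members and libraries and is not covered by the intervals. miR-30c made up 13.2% of the family counts in vesicles from pregnant ewes (9.01 to 18.4%) and 7.59% in vesicles from cyclic ewes (5.57 to 10.0%). Relative to the other 4 members its ratio was 1.85 times as high (exact conditional interval 1.08 to 3.12). miR-30e made up 8.18% (4.92 to 12.6%) and 5.17% (3.52 to 7.30%), a quotient to the other members of 1.63 (0.837 to 3.10). For miR-30a the quotient was 0.8004 (0.520 to 1.21), for miR-30b 0.812 (0.567 to 1.15) and for miR-30d 0.966 (0.684 to 1.36). The interval of miR-30c excluded 1 and those of the other 4 included it. Widened for 5 comparisons, the interval of miR-30c was 0.919 to 3.63 and included 1 as well.

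**Figure D4:**
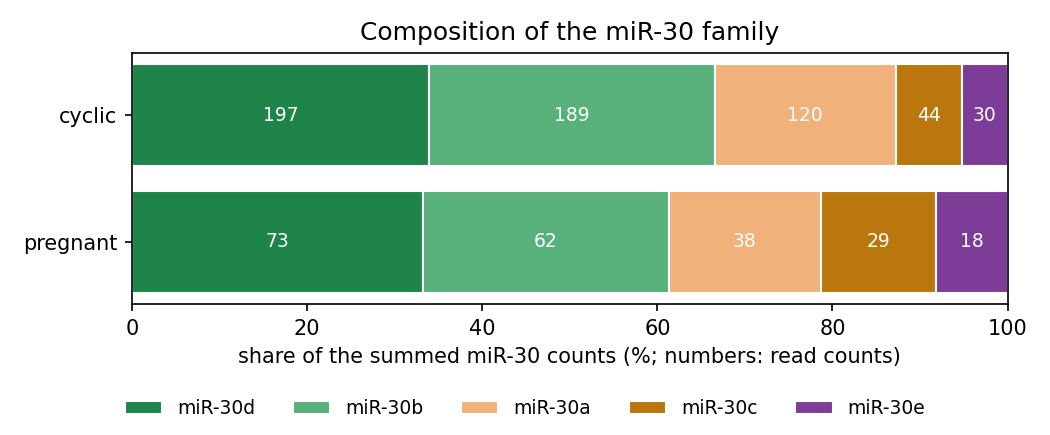
Share of each member in the summed miR-30 counts (%) of the cyclic library (580 counts) and the pregnant library (220 counts), with the read count printed in each segment. miR-30d and miR-30b fill 66.6% of the cyclic and 61.4% of the pregnant bar, and the segment of miR-30c is 7.59% and 13.2%.

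All 10 pairs of members were also compared in their ratios. In 2 of the 10 pairs the 95% interval of the quotient excluded 1. The ratio of miR-30a was 0.480 times that of miR-30c (0.255 to 0.912), and the ratio of miR-30b was 0.498 times that of miR-30c (0.278 to 0.901). With intervals widened for 10 pairs, 0 pairs excluded 1. miR-30b and miR-30d of the same cluster had a quotient of 0.885 (0.586 to 1.34). miR-30a and miR-30b, of different sequence groups and not neighbouring genes, were closer still, at 0.965 (0.588 to 1.57). miR-30c and miR-30e had a quotient of 1.10 (0.488 to 2.50). As miR-30e had no annotated sheep gene, whether its gene neighbours MIR30C could not be seen, and the comparison by cluster is incomplete. No pattern by cluster is read from these values. Grouped by sequence, miR-30a, miR-30d and miR-30e together had a ratio of 1.05 (0.850 to 1.29), and miR-30b and miR-30c together one of 1.10 (0.855 to 1.41). The quotient of the pair over the group of 3 was 1.05 (0.756 to 1.46), so that no shift between the sequence groups was detectable. The group of miR-30a, miR-30d and miR-30e made up 58.6% of the family counts in the pregnant (51.8 to 65.2%) and 59.8% in the cyclic library (55.7 to 63.8%).

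Near-identical members could share reads, and the table gives the counts of reads assigned to 1 precursor only. All 220 counts of the family in the pregnant library and 579 of its 580 in the cyclic library were so assigned, the exception being 1 read of miR-30d. This was 100% (98.3 to 100%) and 99.8% (99.0 to 100%), beside 72.7% (70.9 to 74.4%) and 72.2% (71.2 to 73.3%) over all other miRNAs. Each member has a single named precursor, whereas some other miRNAs have several, such as let-7a with 206 pregnant and 512 cyclic counts. Reads of those can match more than 1 precursor, so the gap does not measure how well near-identical members were told apart. Although miR-30a differs from miR-30d and from miR-30e by 1 base each, the workflow thus gave nearly every read to 1 member. Reads with mismatches were accepted, and how many of them could belong to another of these 3 members was not tested.

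No read of the family counted as an exact match to its reference in the authors' workflow. There were 0 of 220 counts in the pregnant library, and 0 of 580 in the cyclic library. For counting error alone, taking 3 counts as the limit that a count of 0 allows gives 1.36% and 0.517%. The Clopper-Pearson upper limits are 1.66% and 0.634%. An exact sequence with fewer than 10 copies would have been dropped before counting, so these limits do not bound the share among all reads. The same cut holds for the other miRNAs. The exact counts are labelled as those of the mature 5′ sequence, and whether miRNAs of the 3′ arm can count as exact was not tested. Over all other miRNAs 11.9% of the counts were exact in the pregnant (10.7 to 13.2%) and 10.6% in the cyclic library (9.88 to 11.3%). Other miRNAs without an exact match were common, since 58 of the 81, the 5 members included, had none in either library. The division into members therefore rests on reads that the workflow did not count as exact. The counts do not separate reads with a mismatch from reads that differ from the reference only in their ends. How many reads of the family carried a mismatch is therefore not known.

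Compared with other miRNA families, the summed miR-30 counts lay below those of the let-7 family, with 527 pregnant and 1494 cyclic counts, and those of the miR-200 family, repressors of the transcription factors ZEB1 and ZEB2, with 307 and 1030. They lay above those of the miR-29 family, known to repress collagens, with 86 and 298. The ratio of the let-7 sum was 0.930 times that of the miR-30 sum (0.771 to 1.12) and that of the miR-29 sum 0.761 times (0.564 to 1.02), neither of which could be told from 1. The ratio of the miR-200 sum was 0.786 times that of the miR-30 sum (0.640 to 0.966), with an interval of 0.612 to 1.01 when widened for the 3 families compared. Only 3 of the 5 listed miR-200 members and 6 of the 8 listed let-7 members were listed in both libraries, and a member at 0 entered the sum as 0. Over the members listed in both, the quotient was 0.837 for miR-200 (0.681 to 1.03) and 0.956 for let-7 (0.792 to 1.16), so that the miR-200 value could not be told from 1 either. The largest of the 5 miR-30 members held 33.2% of the pregnant and 34.0% of the cyclic family counts, and the largest of the 3 listed miR-29 members 54.7% and 56.0%.

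The miRNAs outside the family whose log2 ratio lay nearest to that of the miR-30 sum, at 0.10, were miR-660 at 0.12, miR-99a at 0.15 and miR-26a at 0.02. miR-26a had 136 and 378 counts and an interval of the ratio of 0.828 to 1.24, whereas miR-660 and miR-99a had 10 and 11 counts in the pregnant library, and their likeness rests on wide intervals. The likeness is over 2 libraries only.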

How the data were processed

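Small RNA was sequenced by the authors on the Ion Torrent platform in 1 library per condition, each pooled from 4 ewes. The authors ran CLC Genomics Workbench with its workflow for small RNA (version not given in the sources used here), with reads of 15 to 55 bp, fewer than 2 mismatches as stated, 10 or more copies and the cattle miRNAs of miRBase release 19, grouped by mature miRNA. What they deposited are read counts without normalization, beside the part of them that matched exactly and the part given to 1 precursor. Both parts are labelled as counts of the mature 5′ sequence, and how miRNAs of the 3′ arm enter them was not tested. An annotation report per library gave other deposited values, the numbers of all reads and of annotated reads.

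Shares, ratios and exact intervals came from SciPy 1.17.1 and NumPy 2.4.6 under Python 3.11.15 with pandas 2.3.3, figures with matplotlib 3.10.9, and scalings with R 4.3.3, edgeR 4.0.16 (TMM) and DESeq2 1.42.0 (size factors). The mature miRNA counts summed to 2809 and 7921. The ratio calls were tried on simulated counts, with changes set only in miRNAs of at least 50 cyclic counts and without the cut of 10 copies. Recovery of a change in miR-30c or miR-30e, and the listing at 0, were therefore not covered. No model was fitted and no test between conditions was made. For a miRNA at 0, 9 copies served as the bound. Members and lists were chosen with earlier results of these data known. The named miRNAs were all members, the miRNAs next to them in rank where needed, and the 3 others nearest in log2 ratio. The grouping of members by sequence and by cluster, the total of miRNAs outside the family, and the family sums over shared members or with 9 copies, were added after seeing the data. The table of all libraries has 6 columns of a library outside the samples mapped here, which were not used. The fold changes in the authors' tables are the paper's own comparisons and were not used.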

Additional observations from a re-analysis of the deposited data

How the results depend on the processing

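Of 69 alternative values 61 stayed within the interval of the reported value or at the same count. Some of these 61 could not differ. For instance, the filter at 50 counts leaves the ratios of miR-30a, miR-30b and miR-30d as they were, and no member had a 0 to replace. The 8 values that did not stay came from 2 settings. Relative to all reads of the library the ratios were 0.251 for miR-30a, 0.260 for miR-30b, 0.522 for miR-30c, 0.294 for miR-30d, 0.475 for miR-30e and 0.300 for the summed family, and 4 members were called in place of 0. With the interval alone as the criterion 1 member was called. The cause was not tested. The interval of miR-30c was 1.01 to 2.73 with edgeR's TMM. With at least 50 counts in either library miR-30c and miR-30e dropped out and the ratio of the sum was 0.964. Leaving 1 member out of the sum at a time gave 1.01 without miR-30c to 1.14 without miR-30b, and with the miRNAs outside the family as the total, a scaling chosen after seeing the data, it was 1.08. With unlisted members at 9 copies, also chosen after seeing the data, the ratio of the miR-200 over the miR-30 sum was 0.832 (0.679 to 1.02). Exact-match counts gave no value, as the family had none. No paired analysis was possible because each condition has 1 library. Depth limits the precision most for miR-30c and miR-30e, with 18 to 44 counts a library.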

Other observations

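The absence of exact matches was also looked at by the length of the reference sequence. Among the miRNAs with a reference of 24 bases, which include miR-30a, miR-30d and miR-30e, 0 of 274 counts in the pregnant and 0 of 823 in the cyclic library were exact, so that those outside the family, with 145 and 476 counts, had none either. Among references of 22 bases, the length of miR-30b, 11.7% and 11.2% of the counts were exact, and among those of 23 bases, the length of miR-30c, 19.1% and 15.9%. This comparison was chosen after the values were seen, and it rests on 5 miRNAs of 24 bases in each library. Only 2 of these in each library lie outside the family, so no relation to length is read from it.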
